A study of Mus musculus with 8 samples.

Results

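Prostaglandins are lipid mediators made from arachidonic acid, a fatty acid that phospholipases release from membranes. The cyclooxygenases turn it into a common precursor, terminal synthases make the single prostaglandins from that precursor, and the products leave the cell and act on G protein-coupled receptors of the same or neighbouring cells. A membrane transporter takes them up again and an NAD-dependent dehydrogenase inactivates them. In lymphatic vessels prostaglandins relax the wall and slow pumping, and the inducible cyclooxygenase is known for its rise in inflammation and in tumors. The 10 genes described here cover these steps and were taken by name from the 55471 genes of the count table, where each symbol occurred once. They are the cyclooxygenases Ptgs1 and Ptgs2, the synthases Ptges, Ptgis and Ptgds, the receptors Ptger1, Ptger2, Ptger4 and Ptgir, and the dehydrogenase Hpgd.

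The genes were read in SV-LECs, an SV40-immortalized line of lymphatic endothelial cells derived from the adventitia of the mouse mesentery. Cells of 4 samples received no treatment and cells of the other 4 received TGFβ1 at 10 ng/ml for 72 h. Both groups are the same line, and the paper's Methods call the samples technical replicates, so errors and p-values cover the spread between libraries and not between independent cultures. Libraries held 18952504 to 26386941 counts. Levels are given as CPM, counts scaled to the TMM-normalized library size, and between genes as TPM, which also divides by exon length. As a floor 3 counts per library were taken, equal to 0.113 to 0.162 CPM, which covers counting error only. The label was checked against markers. Of 10 endothelial genes, Cdh5, Tie1, Erg and Emcn had at most 3 counts in each library, as had Prox1, Lyve1, Ccl21a and Reln of 6 lymphatic genes. Pecam1 had 1 to 3 counts per untreated and 3 to 5 per treated library, and Vwf had 0 and 2 to 10. Thus 6 of the 10 endothelial genes were too low to be tested. Flt4 and Pdpn were expressed, at 21.6 ± 1.23 and 342 ± 19.5 CPM in untreated cells (SD, n = 4). The endothelial list summed to 87.6 to 95.01 CPM in untreated libraries and to 203 to 212 after TGFβ1. Eng, Flt1 and Kdr made up most of this sum. Of 4 tested among 10, these were higher, by log2 fold changes of 1.21, 1.24 and 0.93, and Tek did not pass. The leukocyte list, with 5 of 7 genes at no more than 3 counts anywhere, summed to 6.02 to 8.25 and to 16.2 to 18.6 CPM. Its remaining genes, Cd68 and Csf1r, were higher, by 1.19 and 2.27. Cd68 made up most of the sum, and Csf1r had 3 to 10 counts per untreated and 19 to 33 per treated library. The fibroblast list summed to 6108 to 8099.9 and to 7245 to 8477 CPM, but its members moved apart. Of 5 tested among 7, Dcn, Pdgfra and Col3a1 were lower, by log2 fold changes of -1.91, -1.47 and -0.92 (Dcn from 312 to 83.0 and Pdgfra from 160 to 57.8 CPM), and Col1a1 and Pdgfrb were higher, by 0.81 and 0.63. The epithelial list summed to 5.53 to 9.35 and to 8.08 to 10.1 CPM, of which Krt19 made up most. Of 3 tested among 6, Krt19 was lower (-0.31), while Krt8 and Krt18 were higher, by 1.99 and 2.47, on 2 to 12 counts per untreated and 16 to 47 per treated library. Over all genes tested 37.6% were called higher and 38.0% lower, at an FDR below 0.05, so nothing particular to the marker lists is read from their calls. The part of these markers in the results was not tested, and in bulk RNA a change in the number of expressing cells cannot be told apart from a change in RNA per cell.

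TGFβ1 raised the transcripts of the inducible cyclooxygenase and, at low levels, of one PGE2 synthase and one PGE2 receptor. The abundant prostacyclin synthase differed by 0.12 on the log2 scale. Ptges3, a PGE2 synthase gene of the wider lists with far more transcript per length than Ptges, was lower (log2 fold change -0.55). Of the 10 genes, 7 passed the filter on low counts. With the likelihood ratio test of edgeR and a Benjamini-Hochberg FDR below 0.05 (edgeR FDR from here on), 5 of the 7 were higher after TGFβ1 (Ptgs1, Ptgs2, Ptges, Ptgis and Ptger1) and 2 did not pass (Ptger2 and Ptger4). The treatment moved most of the transcriptome, and 37.6% of the 13818 genes tested were called higher and 38.0% lower. None of the 7 was called lower, by this test or by the quasi-likelihood test, and 0 of them were lower at an unadjusted p under 0.05. A stricter call, with a log2 fold change of at least 1 as well, was met by 3 of the 7 genes (Ptgs2, Ptger1 and Ptges), against 10.9% of all genes in the same direction. The median log2 fold change was 0.64 over the 7 genes and -0.01 over all genes tested. The value of 0.64 is that of Ptger4, which did not pass and had 6 to 15 counts per library. Hpgd, with 0 to 8 counts in untreated and 0 in treated libraries, was removed by the filter and is not part of this median. In 4 of the 7, all but Ptgis, Ptger2 and Ptger4, the libraries of the groups did not overlap, as in 69.8% of all genes. The plot of levels in each library shows this separation gene by gene.

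**Figure D1:**
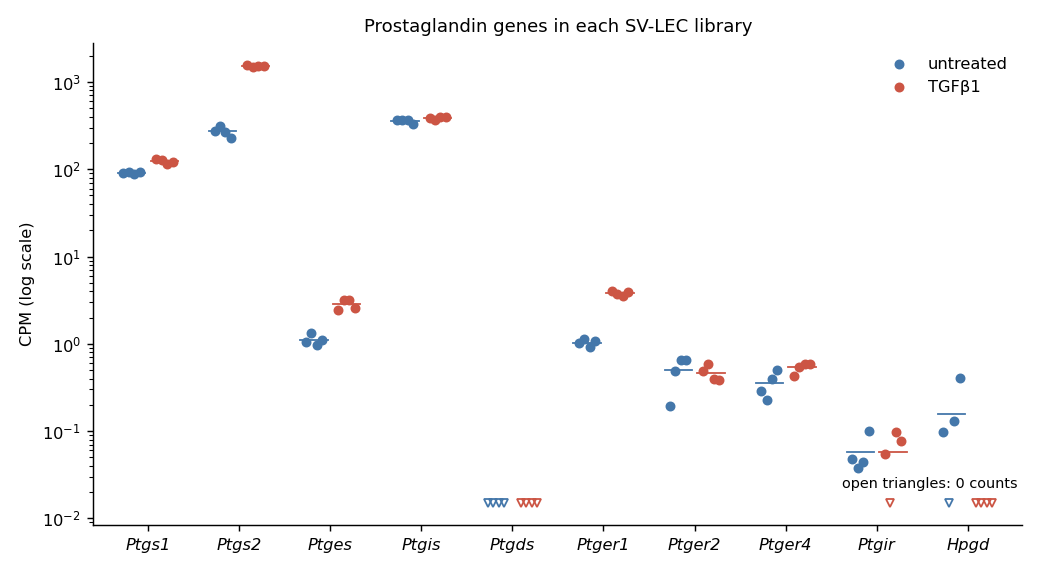
CPM of the 10 prostaglandin genes (log scale) in each of 4 untreated (blue) and 4 TGFβ1-treated (red) libraries, with group means as lines and open triangles for libraries with 0 counts. Ptgs2 stands between 229 and 316 CPM untreated and between 1464 and 1579.7 after TGFβ1, and Ptgis lies at 326 or above in all 8 libraries.

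Ptgs2 encodes COX-2, the inducible cyclooxygenase, and lies on chromosome 1 of GRCm38 from 150100031 to 150108227 (ENSMUSG00000032487, plus strand). In untreated libraries it stood at 273, 316, 264 and 229 CPM. In TGFβ1-treated libraries it stood at 1579.7, 1464, 1535 and 1531 CPM. The lowest treated library thus lay far above the highest untreated one, and the treated libraries were close to each other. The mean went from 271 ± 35.5 to 1527 ± 47.9 CPM (SD, n = 4), a 5.64-fold rise with a 95% interval of 5.07 to 6.27 (log2 fold change 2.50, SE 0.0779, edgeR FDR = 2.44e-223). By mean CPM Ptgs2 moved from rank 610 to rank 43 among the 13818 genes tested. By log2 fold change, from the highest down, it ranked 331 among the genes tested. None of its exon bases is shared with another annotated gene. The 3 genes whose centred log2 CPM profiles over the 8 libraries lay closest to that of Ptgs2 were Afap1l2, Enpp1 and Pcolce2, at root mean square distances of 0.0902, 0.0935 and 0.115.

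Ptgs1 encodes COX-1, the form that many tissues make without stimulation, and lies on chromosome 2 from 36230426 to 36252272 (ENSMUSG00000047250). It was read at 90.7, 93.8, 88.6 and 92.7 CPM in untreated libraries. After TGFβ1 it was read at 132, 126, 115 and 122 CPM. The groups did not overlap, but the step between them was small. The mean rose from 91.5 ± 2.33 to 124 ± 6.94 CPM (SD, n = 4), a log2 fold change of 0.44 (SE 0.0494, edgeR FDR = 4.06e-18). A stretch of 148 exon bases, 3.81% of its length, is also annotated on the opposite strand as Gm43621. The libraries mark strand, but whether counting used it is not given in the sources used here, so for any gene described here reads from an overlapping gene on the other strand cannot be told apart.

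Per length, cyclooxygenase transcripts were mostly Ptgs2 already in untreated cells. Ptgs2 made up 71.3 ± 2.65% of the summed TPM of both genes in untreated libraries, with a range of 67.7 to 74.0%. After TGFβ1 it made up 91.3 ± 0.472%, with a range of 90.8 to 91.9% (SD, n = 4). The sum itself went from 337 ± 33.5 to 1449.96 ± 49.1 TPM, 4.30 times as much. The log2 ratio of Ptgs2 to Ptgs1 within a library, which does not depend on library scaling, was 1.32 ± 0.18 in untreated and 3.39 ± 0.09 in treated libraries. The difference of 2.07 had p = 0.0286 (exact two-sided permutation test, n = 4 per group), and 0.0286 after adjustment over the 2 ratios tested. This is the smallest value that 4 against 4 libraries allow. The separation followed from the levels of the single genes given above, so the p-value adds nothing to them.

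**Figure D2:**
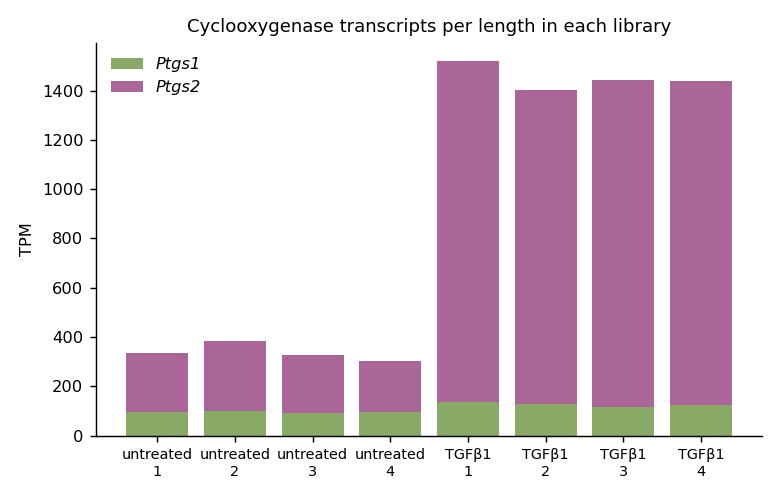
Stacked TPM of Ptgs1 (green) and Ptgs2 (purple) in each library, numbered by replicate within untreated and TGFβ1-treated cells. The summed level is between 303 and 383 TPM in untreated and between 1401 and 1518 TPM in treated libraries, and the difference is almost all Ptgs2.

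The start regions of the cyclooxygenase genes are printed because the genes moved by different amounts. Each is 300 bases of GRCm38.p6 from RefSeq, 250 before and 50 after the annotated start, read 5′ to 3′ on the plus strand, Ptgs2 at chr1:150099781-150100080 and Ptgs1 at chr2:36230176-36230475. Capitals mark every match, on either strand, to CAGAC, the short element that SMAD proteins bind, and to TGACGT, the core of the cAMP response element.
Ptgs2: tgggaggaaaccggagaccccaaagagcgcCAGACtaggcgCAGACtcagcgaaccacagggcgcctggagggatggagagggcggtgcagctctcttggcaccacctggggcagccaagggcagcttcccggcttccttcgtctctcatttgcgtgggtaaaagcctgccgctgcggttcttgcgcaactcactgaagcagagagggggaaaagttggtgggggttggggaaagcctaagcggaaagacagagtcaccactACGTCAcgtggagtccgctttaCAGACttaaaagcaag
Ptgs1: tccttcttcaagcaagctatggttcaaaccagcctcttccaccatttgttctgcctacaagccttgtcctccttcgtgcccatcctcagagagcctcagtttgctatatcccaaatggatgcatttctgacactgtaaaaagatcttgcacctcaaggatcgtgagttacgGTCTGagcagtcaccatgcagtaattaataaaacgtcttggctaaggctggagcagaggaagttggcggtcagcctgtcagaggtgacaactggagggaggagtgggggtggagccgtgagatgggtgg

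In the Ptgs2 region CAGAC occurred 3 times, starting at positions -220, -209 and 35 counted from the annotated start. The region of Ptgs1 held 1 match, on the minus strand at -79 to -75. The same 5 letters were found in 49.6% of the 32851 start regions of this length in the mouse table. TGACGT occurred once in the Ptgs2 region, on the minus strand at 13 to 18, and not in that of Ptgs1, against 7.51% of all regions. CANNTG, the E-box, was found in both, as in 72.3% of regions, and TATAAA, GTCTAGAC and the full palindrome TGACGTCA in neither, as against 13.6%, 0.213% and 1.79%. The Ptges region held CAGAC once, at -207 to -203 on the minus strand, and of the other letters searched only the E-box. This region, chr2:30903248-30903547, surrounds a RefSeq start that lies inside the gene span given below. It is not at the 5′ end of that span, 30929863. These matches describe letters and not binding. Of the 10 genes, 8 had an entry, and Ptgis and Ptger1 did not.

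Ptges encodes the inducible membrane-bound PGE2 synthase and lies on the minus strand of chromosome 2 from 30889471 to 30929863 (ENSMUSG00000050737). Its counts were low, 22, 35, 22 and 22 in untreated and 45, 66, 64 and 66 in treated libraries. In CPM these were 1.06, 1.31, 0.961 and 1.12 without and 2.43, 3.21, 3.15 and 2.56 with TGFβ1. Every treated library was above every untreated one. The mean went from 1.11 ± 0.149 to 2.84 ± 0.399 CPM (SD, n = 4), a 2.52-fold rise with a 95% interval of 1.98 to 3.21 (log2 fold change 1.33, SE 0.179, edgeR FDR = 2.47e-13). That the rise was more than a doubling was not shown (FDR = 0.0694 from edgeR's glmTreat against a log2 fold change of 1), while it was for Ptgs2 and Ptger1 (FDR = 3.28e-87 and 1.28e-07 from glmTreat).

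Ptgis encodes prostacyclin synthase, whose product is the vasodilator of the vessel wall, and lies on the minus strand of chromosome 2 from 167191805 to 167240604 (ENSMUSG00000017969). It was read at 363, 362, 367 and 326 CPM in untreated and at 388, 365, 394 and 397 CPM in treated libraries. The groups overlapped, since the highest untreated library was above the lowest treated one. The means were 355 ± 19.2 and 386 ± 14.3 CPM (SD, n = 4), a log2 fold change of 0.12 (SE 0.0479, edgeR FDR = 0.0143). A stretch of 6.08% of its exon bases is also annotated on the opposite strand, as 1110018N20Rik. The call rested on single libraries and on scaling, and was lost without untreated replicate 4 (log2 fold change 0.08, FDR = 0.0710), without TGFβ1 replicate 3 (0.11, FDR = 0.0526) or 4 (0.11, FDR = 0.0511), and with total-count scaling (0.06, FDR = 0.275).

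Ptgds, the lipocalin-type synthase of PGD2, had 0 counts in all 8 libraries, which over 175244286 counts allows a level of up to 0.0171 CPM. Among the 3 terminal synthases the order of levels per length was the same in both groups. Ptgis was first with 563 ± 29.1 TPM in untreated and 597 ± 20.3 in treated cells, and Ptges followed with 1.15 ± 0.162 and 2.87 ± 0.399 TPM (SD, n = 4). Ptgis thus held 99.8% and 99.5% of their summed TPM, a sum that leaves out Ptges3 and the other synthases of the wider lists. The log2 ratio of Ptges to Ptgis went from -8.82 ± 0.20 to -7.67 ± 0.23, a difference of 1.16 with p = 0.0286 (exact two-sided permutation test, n = 4 per group, adjusted value 0.0286). This p-value too followed from the levels of the single genes and adds nothing to them. Before treatment Ptgis was also more abundant per length than Ptgs2, at 241 ± 32.4 TPM, and after it Ptgs2 was the more abundant, at 1323 ± 45.4 TPM. The libraries of the genes did not overlap in either group.

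Per length the receptors were far lower than Ptgs1, Ptgs2 and Ptgis, and among those of PGE2 the transcripts shifted towards Ptger1. Ptger1 encodes EP1, a receptor that raises intracellular calcium, and lies on chromosome 8 from 83666678 to 83672753 (ENSMUSG00000019464). It had 21, 30, 21 and 21 counts in untreated libraries, 1.01, 1.13, 0.917 and 1.06 CPM. In treated libraries it had 75, 76, 71 and 101 counts, 4.06, 3.70, 3.49 and 3.92 CPM. The groups were well apart. The mean rose from 1.03 ± 0.0888 to 3.79 ± 0.248 CPM (SD, n = 4), a 3.66-fold change with a 95% interval of 2.94 to 4.54 (log2 fold change 1.87, SE 0.160, edgeR FDR = 6.26e-31).

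Ptger2 and Ptger4 encode EP2 and EP4, which raise cAMP. Ptger2 (chromosome 14, 44988195 to 45003820) had 4, 13, 15 and 13 counts in untreated and 9, 12, 8 and 10 in treated libraries. Its log2 fold change of -0.12 did not pass (edgeR FDR = 0.744), and the 95% interval of the ratio, 0.588 to 1.44, leaves room for changes in either direction. Ptger4 (chromosome 15, 5206661 to 5244187) had 6, 6, 9 and 10 counts in untreated and 8, 11, 12 and 15 in treated libraries. Its log2 fold change of 0.64 did not pass either (edgeR FDR = 0.0730, 95% interval of the ratio 0.988 to 2.46), but it did without untreated replicate 4 (0.84, FDR = 0.0321). The groups of both genes overlapped. Ptger4 shares 15.3% of its exon bases with Gm15937 on the opposite strand. Ptgir, the prostacyclin receptor (chromosome 7, 16906490 to 16910905), had 0 to 2 counts in each library and was below the floor in all of them, so that no change could be read.

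Together with Ptger3, which encodes EP3, the receptor that lowers cAMP, all receptors of PGE2 were in the table. Ptger3 fell, from 1.21 ± 0.192 to 0.717 ± 0.127 CPM (log2 fold change -0.73, edgeR FDR = 0.00272). Per length, untreated cells held Ptger3 at 0.868 ± 0.143 and Ptger1 at 0.770 ± 0.0710 TPM, with overlapping libraries, then Ptger2 at 0.392 ± 0.173 and Ptger4 at 0.217 ± 0.0761 TPM, which also overlapped (SD, n = 4). After TGFβ1, Ptger1 led with 2.76 ± 0.191 TPM and did not overlap with the others, which were Ptger3 at 0.410 to 0.618, Ptger2 at 0.354 ± 0.0726 and Ptger4 at 0.319 ± 0.0410 TPM, each overlapping its neighbour. The share of Ptger1 in their summed TPM went from 34.6 ± 4.03% to 70.1 ± 1.76%, and that of Ptger3 from 38.7 ± 4.86% to 12.7 ± 1.66%.

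**Figure D3:**
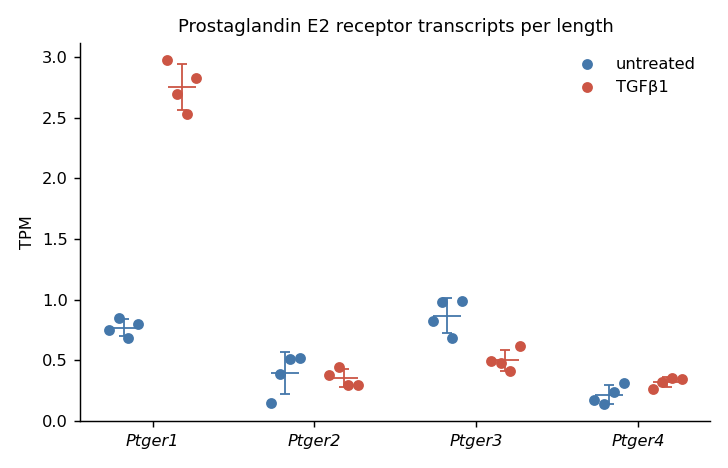
TPM of the PGE2 receptor genes in each untreated (blue) and TGFβ1-treated (red) library, with mean and SD (n = 4). Ptger1 is between 0.683 and 0.849 TPM untreated and between 2.53 and 2.98 after TGFβ1, and no other receptor gene exceeds 0.986 TPM.

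Hpgd encodes the 15-hydroxyprostaglandin dehydrogenase, the enzyme that starts the inactivation of prostaglandins, and lies on chromosome 8 from 56294585 to 56321043 (ENSMUSG00000031613). It had 2, 0, 3 and 8 counts in untreated libraries and 0 in each treated library, where 0 counts over the group allow a level of up to 0.0352 CPM. Only untreated replicate 4 exceeded the floor. The gene did not pass the filter on low counts. With no filter its edgeR FDR was 0.00131 over 27709 genes, and because the untreated mean was itself close to the floor no fold is given.

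The rest of the pathway was read from lists of 32 genes, of which 31 were in the table and 17 were tested. Of these 9 passed the test as higher and 7 as lower, beside 37.6% and 38.0% of all genes tested, with a median log2 fold change of 0.25. Nothing particular to these lists is read from the counts. All 5 tested phospholipases were higher. Pla2g4a, the cytosolic enzyme that supplies arachidonic acid to the cyclooxygenases, rose from 156 ± 5.44 to 284 ± 4.96 CPM (SD, n = 4), a log2 fold change of 0.86 (edgeR FDR = 2.03e-99). It lies on the same chromosome as Ptgs2 and on the opposite strand, with 138.7 kb between the genes and their starts facing each other. Pla2g4c had the largest log2 fold change, 1.26, but on 8 to 27 counts per library, and Pla2g6, Pla2g12a and Pla2g15 had values of 0.42, 0.41 and 0.25. Of 5 other synthase genes tested, 4 were lower. These were the cytosolic PGE2 synthase gene Ptges3, also a co-chaperone (log2 fold change -0.55), and Cbr1, Akr1b3 and Prxl2b, whose enzymes reduce prostaglandins to the F type among other substrates (-0.47, -0.14 and -0.60). Ptges2 did not pass (-0.13, edgeR FDR = 0.109). Per length Ptges3 went from 294 ± 4.71 to 195 ± 10.5 TPM and Ptges2 from 14.3 ± 1.07 to 12.6 ± 0.703 TPM (SD, n = 4). Both stood above Ptges, which held 1.15 and 2.87 TPM. Tbxa2r, the thromboxane receptor, was not tested, with 3 to 7 counts in untreated and 13, 8, 32 and 40 in treated libraries, and Ptgdr, Ptgdr2 and Ptgfr had no more than 3 counts in any library.

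Among the 6 genes of transport and breakdown 4 were higher and 2 lower, beside 37.6% and 38.0% of all genes tested. Slco2a1 encodes the transporter that takes prostaglandins into cells for breakdown. It was read at 23.2, 23.5, 20.6 and 19.7 CPM in untreated and at 10.7, 9.49, 10.4 and 8.69 CPM in treated libraries. The groups did not overlap, and the log2 fold change was -1.16 (SE 0.0923, edgeR FDR = 3.16e-35), a 2.23-fold fall. It was the 1 gene of these lists that fell by 1 or more on the log2 scale, as did 6.56% of all genes. Abcc4 encodes an efflux pump that exports PGE2. It was read at 22.8, 24.5, 25.3 and 22.1 CPM without and at 44.1, 44.4, 42.3 and 45.5 CPM with TGFβ1, a log2 fold change of 0.89 (SE 0.0585, edgeR FDR = 2.07e-51). Per length Abcc4 was the higher of the pair in both groups, at 15.1 ± 0.962 and 27.4 ± 0.833 TPM, against 6.55 ± 0.568 and 2.87 ± 0.277 TPM for Slco2a1 (SD, n = 4). Ptgr1 and Ptgr2, which encode reductases of the later breakdown steps, rose by 0.73 and 0.47 on the log2 scale, and Cbr3 rose by 0.37. Zadh2, the remaining reductase gene, fell by 0.47.

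**Figure D4:**
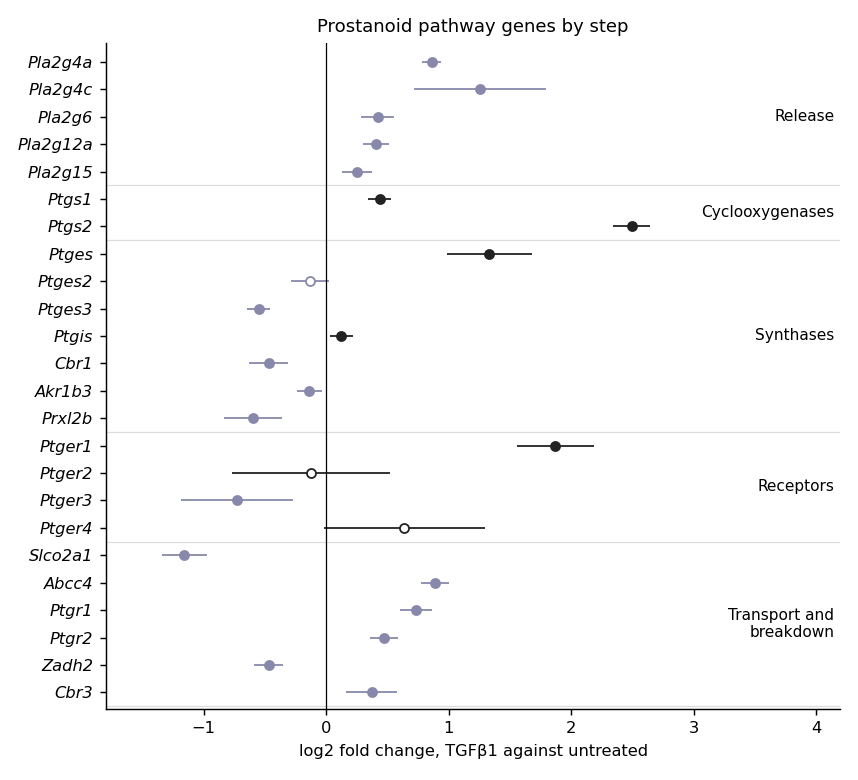
Log2 fold change of the 24 tested prostanoid genes in TGFβ1-treated against untreated cells, by step, with 95% intervals. Black marks the 7 tested genes described first, blue-grey the 17 of the wider lists, and open circles those that did not pass an FDR of 0.05. Release genes lie right of 0 without exception, and among transport and breakdown genes Slco2a1 (-1.16) and Zadh2 (-0.47) lie left of it.

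For comparison, 13 genes of the lipoxygenase and leukotriene route, which uses the same arachidonic acid, were read. Of 6 tested, 4 were higher and 2 lower, beside 37.6% and 38.0% of all genes tested, with a median log2 fold change of 2.88. The other 7 were not tested. Alox5 and Alox12 passed the filter only through the treated libraries, Alox12 with 2 to 9 counts per untreated and 25 to 47 per treated library. Cysltr1 passed only through the untreated ones. The counts and the median depend on such genes, so nothing about the route is read from them. The receptor genes Ltb4r1 and Ltb4r2 rose by 3.33 and 3.37 on the log2 scale. They had 42 to 64 and 102 to 152 counts per untreated library. Alox5, which encodes 5-lipoxygenase, was read at 1 to 2 counts without and 15 to 35 with TGFβ1, a fitted ratio of 18.3 with a 95% interval of 10.3 to 32.4 that rests on untreated levels below the floor (edgeR FDR = 1.38e-22). Cysltr1, a receptor of cysteinyl leukotrienes, fell the most, from 2.49 ± 0.271 to 0.424 ± 0.231 CPM (log2 fold change -2.57, edgeR FDR = 3.71e-27). Of 10 genes known to respond to cAMP, the second messenger of EP2 and EP4, 6 were higher and 1 lower, with a median of 0.25. Over all genes tested 37.6% were higher and 38.0% lower. Whether these receptors had a part in the cAMP genes was not tested. Fosb had the largest rise (log2 fold change 1.40, edgeR FDR = 7.89e-10), on 10 to 20 counts per untreated and 30 to 43 per treated library. Pde4b, which encodes a cAMP phosphodiesterase, had the fall (-0.86, edgeR FDR = 1.78e-66).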

How the data were processed

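RNA came from 8 SV-LEC samples, 4 left untreated and 4 given TGFβ1 (10 ng/ml, 72 h), and was sequenced from stranded poly(A) libraries with single-end reads of 75 bases. The authors deposited raw counts of reads per gene, as whole numbers without normalization. The submitters' processing notes name bcl2fastq 2.20.0.422, STAR 2.7.3a, featureCounts 1.5.1 and GRCm38. The annotation release and the strand setting of counting are not given in the sources used here.

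Groups came from the sample titles. Counts were filtered with filterByExpr, scaled by TMM and compared with glmFit and glmLRT in edgeR 4.0.16 (R 4.3.3), the test the study's methods name, with Benjamini-Hochberg adjustment over all 13818 genes. Standard errors are the log2 fold change over the root of the likelihood ratio statistic. In simulated data of this comparison, with 13636 genes tested and 200 changed, this test called 180 of the changed genes and 18 others (9.09% of calls false), and the quasi-likelihood test 178 and 9 (4.81%). The real data had far more called genes, 37.6% higher and 38.0% lower. The share of false calls depends on how many genes change, so the simulated shares do not describe the calls here. TPM used union exon lengths of GENCODE M21, which matched 55230 genes. The members, gene lists and tests were chosen with earlier results of these data known. All 10 members are named, with tested genes of the pathway lists, the largest rise and fall of the comparison lists, and the 3 profiles nearest to Ptgs2. The ratio of Ptgs2 to Hpgd, also planned, was left out because Hpgd did not pass the filter. Single genes of the cell type marker lists, and Alox12, Ltb4r1 and Ltb4r2, were named after their values were seen. One overlap between genes is not reported here.

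No pair of libraries within a group agreed within sampling noise (chi-square per degree of freedom 2.37 to 7.84 in 12 pairs). Total counts per library set the precision of the low genes. Alternatives were the quasi-likelihood test, DESeq2 1.42.0, its size factors in edgeR, total counts, no filter, a minimum of 1 CPM in 4 or more libraries, a threshold of 0.01, a prior count of 2, the replicate block, glmTreat, another prior count in the ratios and each library left out.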

Additional observations from a re-analysis of the deposited data

Results flagged for a closer look

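In 48 groups of 4 libraries, covering the 24 tested prostanoid genes, the gap of the highest or lowest library to its neighbour was compared with the group's range, and 2 exceeded Dixon's 95% critical value for 4 samples. Chance alone flags about 1 group in 20. Untreated replicate 4 had the lowest Ptgis level, 326 CPM, against 362 to 367 in the other untreated libraries. Untreated replicate 3 had the highest Pla2g4a level, 164 CPM, against 153 to 155 in the others.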

How the results depend on the processing

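In 17 alternative settings the log2 fold changes ranged from 2.42 to 2.58 for Ptgs2, from 0.37 to 0.47 for Ptgs1, from 1.26 to 1.44 for Ptges and from 1.79 to 1.92 for Ptger1, all called in each. Ptgis kept its direction but lost its call in 6 of the 17, with no filter (log2 fold change 0.09), at a threshold of 0.01, with total counts and without 3 of the single libraries. The direction of Ptger2 turned without untreated replicate 3 or 4, with a range of -0.37 to 0.036 over the libraries left out. With no filter on low counts 1 of the 10 genes was called lower, Hpgd. The replicate block gave 5 members higher, 0 lower, and 9 and 7 pathway genes higher and lower, and a log2 fold change of 2.50 for Ptgs2. It changed no call of a member. Samples of the same number did not vary together (correlations of deviations -0.19 to -0.03 over 4 pairs). Leaving out libraries or changing the prior count moved the ratio of Ptgs2 to Ptgs1 between 1.99 and 2.13 and that of Ptges to Ptgis between 1.07 and 1.23. Counts of 4 to 36 per library limit Ptger2, Ptger3, Ptger4 and Pla2g4c.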
